A study of Homo sapiens with 12 samples.

Results

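The genes described here are 9 genes that encode very large linker proteins of the cytoskeleton: PLEC, MACF1, DST, AHNAK, SPTAN1, SPTBN1, FLNA, DSP and UTRN. They were chosen by name for what their proteins do, not by a measured value, though earlier results of these data were known. An ac4C peak was counted for a gene when its midpoint lay in the gene's GRCh38 span on the gene's strand. By that rule 260 of the 126599 peaks in 6 libraries belonged to these genes. Overlapping peaks merged into 80 of the 41755 regions of the whole set. A span holds introns, so positions and lengths along it are not those along the mRNA.

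The peaks come from acRIP-seq, which sequences RNA fragments bound by an antibody to the modified base N4-acetylcytidine (ac4C). The cells were SW620, a line from a human colorectal cancer, and carried either a control short hairpin RNA (shControl, labelled WT) or one against NAT10 (shNAT10, labelled NAT10 knockdown), with 3 immunoprecipitated libraries in each group. The purpose stated for the series was to find RNAs whose ac4C depends on NAT10. Nothing in the labels says that the 3 libraries of a group came from separate cultures, nor how many clones or hairpins they stand for, so the p-values below measure the spread between these libraries, which may be technical.

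NAT10 is the enzyme known to write ac4C on RNA. Plectin (PLEC), MACF1, dystonin (DST) and desmoplakin (DSP) are plakins, which tie intermediate filaments, microtubules and actin to each other and to cell junctions. The spectrins SPTAN1 and SPTBN1 form the tetramers that line the inner face of the cell membrane, filamin A (FLNA) crosslinks actin filaments, utrophin (UTRN) is the dystrophin relative outside mature muscle that joins actin to the membrane, and AHNAK is a giant scaffold protein under the membrane. In an epithelial cell such as SW620 these proteins hold together desmosomes, hemidesmosomes and the lateral membrane.

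Peaks touched RefSeq promoter windows of 4 of these genes, and the bases there are shown because the 1 region present in all 3 libraries of a group and absent from the other lies in such a window. The windows, of 300 bases each, were given for 8 of the 9 genes, 14 windows in all, and 5 of the 14 (35.7%) were touched by a peak of their gene. Over all 35116 windows the share was 20.9%. Each line below holds 100 bases before and 30 bases from the RefSeq start on (build GRCh38.p14, sense strand, 5′ to 3′), and capitals mark the bases inside the peaks.
SPTAN1, chr9:128552487-128552616, plus strand, peak in 3 shControl and 0 shNAT10 libraries: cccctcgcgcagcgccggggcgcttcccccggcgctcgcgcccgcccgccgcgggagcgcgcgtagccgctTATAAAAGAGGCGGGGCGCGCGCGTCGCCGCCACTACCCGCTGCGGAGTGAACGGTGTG
SPTBN1, first start, chr2:54456227-54456356, plus strand, peak in 3 shControl and 3 shNAT10 libraries: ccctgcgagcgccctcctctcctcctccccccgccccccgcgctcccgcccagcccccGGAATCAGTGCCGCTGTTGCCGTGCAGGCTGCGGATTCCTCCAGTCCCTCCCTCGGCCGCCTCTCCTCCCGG
SPTBN1, second start, chr2:54558283-54558412, plus strand, peak in 3 shControl and 3 shNAT10 libraries: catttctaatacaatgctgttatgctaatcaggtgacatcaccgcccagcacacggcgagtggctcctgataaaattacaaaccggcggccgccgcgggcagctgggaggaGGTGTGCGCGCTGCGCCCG
DSP, chr6:7541571-7541700, plus strand, peak in 3 shControl and 2 shNAT10 libraries: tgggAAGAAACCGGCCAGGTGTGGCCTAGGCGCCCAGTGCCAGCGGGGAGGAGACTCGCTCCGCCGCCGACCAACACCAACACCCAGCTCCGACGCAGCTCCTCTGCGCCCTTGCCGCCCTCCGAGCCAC

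The SPTAN1 peak began 29 bases before the annotated start, the SPTBN1 peak at the first start 42 bases before it and the DSP peak 96 bases before it, while the peak at the second SPTBN1 start began inside the gene. The fifth window touched was that of FLNA, by a peak of 1 shNAT10 library. These windows were rich in G and C, with 78.0% for SPTAN1, 77.3% and 69.7% for SPTBN1 and 77.0% for DSP against a median of 58.7% over all windows. A run of 4 triplets that each begin with C (CNN repeated), a pattern that has been described around ac4C in mRNA, occurred in all 5 windows on the sense strand. The same run was found in 74.9% of all 35116 windows, and in 90.3% on either strand, so its presence does not set these starts apart.

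The peak lists of the 6 libraries differed in length. They held 18241, 22619 and 20063 peaks in shControl and 28752, 17877 and 19047 in shNAT10, and shNAT10 library 1 stood apart with the longest list. Each peak carries a score from 50 upward, with a tie at 3100 that held, together with the few higher scores, 7.85% to 14.1% of a library's peaks. The score is given here as a percentile within its own library (score rank, 0 to 100), on which that tie sits between 92.7 and 96.0 depending on the library, so ranks in that interval have no order between libraries. The lists hold no counts, so sequencing depth and the amount of each RNA are unknown, and the number of peaks in a gene is not an amount of ac4C. In bulk RNA, fewer cells with a mark and less mark per cell cannot be told apart.

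NAT10 itself had 1, 0 and 2 peaks in the shControl libraries and 2, 0 and 1 in the shNAT10 libraries, which does not measure its knockdown. Of 11 genes that mark colorectal epithelium, 9 had a peak and EPCAM, CDH1, VIL1, KRT8 and CDX2 had one in all 6 libraries, whereas KRT18 and KRT20 had none. CEACAM5 was the marker whose groups did not overlap, with 2, 1 and 3 peaks in shControl and 0 in each shNAT10 library. Over all genes with a peak, 0.651% had numbers that did not overlap and were higher in shControl, and 1.57% the reverse. Among markers of other cells, 1 of 4 immune, 1 of 4 fibroblast and 2 of 3 endothelial genes had a peak, none of them in all 6 libraries.

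The number of ac4C peaks in the giant linker genes was close to equal in the 2 groups. Together they held 40, 43 and 41 peaks in shControl and 56, 39 and 41 in shNAT10, or 41.3 ± 1.53 against 45.3 ± 9.29 (SD, n = 3 each). The high value was that of shNAT10 library 1, and without it the difference of 4 peaks turned to -1.33. Per 10000 peaks of a library the values were 21.9, 19.0 and 20.4 against 19.5, 21.8 and 21.5, and the groups overlapped. All 9 genes had a peak in every library, with the exception of UTRN in shNAT10 library 2. Of all protein-coding genes with a peak, 48.6% had one in all 6 libraries.

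By gene, 7 of the 9 had a higher mean number of peaks in shNAT10 and 2 (DSP and UTRN) in shControl. The median difference was 0.333 peaks, against 0 over the 12281 protein-coding genes with a peak, of which 44.6% had more in shNAT10 and 31.9% more in shControl. With 3 libraries against 3, the two-sided exact permutation test cannot go below 0.1, and after Benjamini-Hochberg adjustment over all genes no gene of the whole set went below 1. The peak numbers of the groups did not overlap for 1 of the 9 genes, SPTAN1, which had more in shNAT10. Over all genes that pattern was met by 1.57%, and the opposite one, met by none of the 9, by 0.651%.

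**Figure D1:**
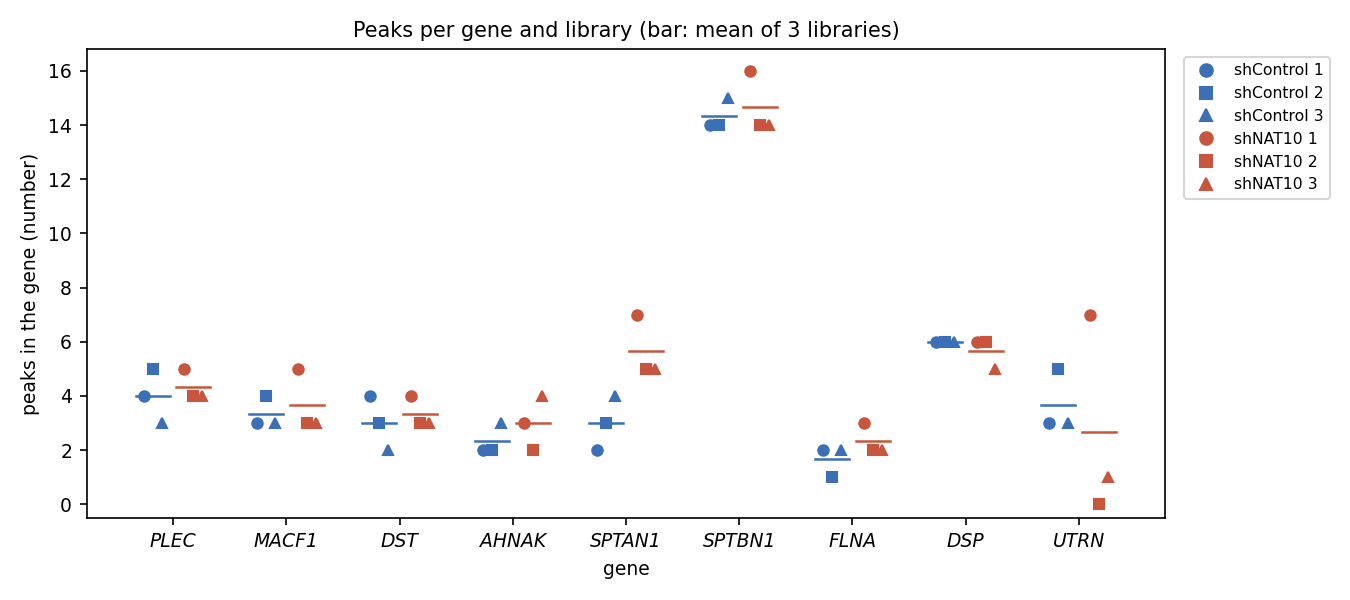
Number of ac4C peaks (y axis) in each of the 9 genes (x axis) in the 3 shControl libraries (blue) and the 3 shNAT10 libraries (red), 1 point per library, with a bar at the mean of each group. SPTBN1 sits at 14 to 16 peaks in every library, SPTAN1 is the gene whose groups do not overlap (2, 3 and 4 against 7, 5 and 5), and UTRN runs from 0 to 7 within shNAT10.

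Beta-II spectrin, encoded by SPTBN1, had by far the most peaks of the 9 genes. There were 14, 14 and 15 in shControl and 16, 14 and 14 in shNAT10 (difference 0.333, exact permutation p = 1), and the groups overlapped. Among the 50% of peaks with the highest scores in each library, SPTBN1 had 9, 9 and 11 against 13, 13 and 12, a difference of 3 with an exact permutation p of 0.1 and no overlap. That pattern was met by 1.48% of all genes with such a peak. On the full lists the mean of 14.5 peaks placed it 31st among all protein-coding genes, after genes such as PCNT (25.2), MYH14 (24.0), CEP250 (21.7) and WNK2 (19.0). The gene spans chr2:54456327-54671446, 215 kb, and 73 of its 87 peaks (83.9%) lay in the last 25% of that span. The rest sat almost wholly at the 2 starts shown above.

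Of the 21 SPTBN1 regions, 10 were called in every library, and in each of these 10 the peak had the same first and last base in every library. The strongest by its lowest rank was region 8, counted from the 5′ end, at chr2:54628933-54629803 (871 bases). Its ranks were 90.1, 86.5 and 93.2 in shControl and 92.7, 94.0 and 93.2 in shNAT10. That region was at 3100 or above in 4 libraries, namely shControl 3 and all of shNAT10.

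The score ranks of SPTBN1 leaned towards shNAT10, with 1 shControl library on the shNAT10 side. The median rank over its peaks was 53.8, 60.0 and 75.5 in shControl and 75.3, 79.3 and 79.1 in shNAT10. The group means were 63.1 ± 11.2 and 77.9 ± 2.25 (SD, n = 3 each), a difference of 14.8 percentile points with an exact permutation p of 0.2, and shControl library 3 overlapped shNAT10. Of the 10 shared regions, 8 had a higher mean rank in shNAT10 and 2 a lower one.

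In 2 of those regions the groups did not overlap. In region 1, at the first start (chr2:54456285-54456518), the ranks were 54.9, 49.7 and 66.6 against 83.5, 67.4 and 70.2. In region 17 (chr2:54657850-54658046) they were 27.8, 30.5 and 65.7 against 77.2, 74.8 and 68.3. In both regions shControl library 3 was the highest of its group and lay within 3 percentile points of the lowest shNAT10 library.

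**Figure D2:**
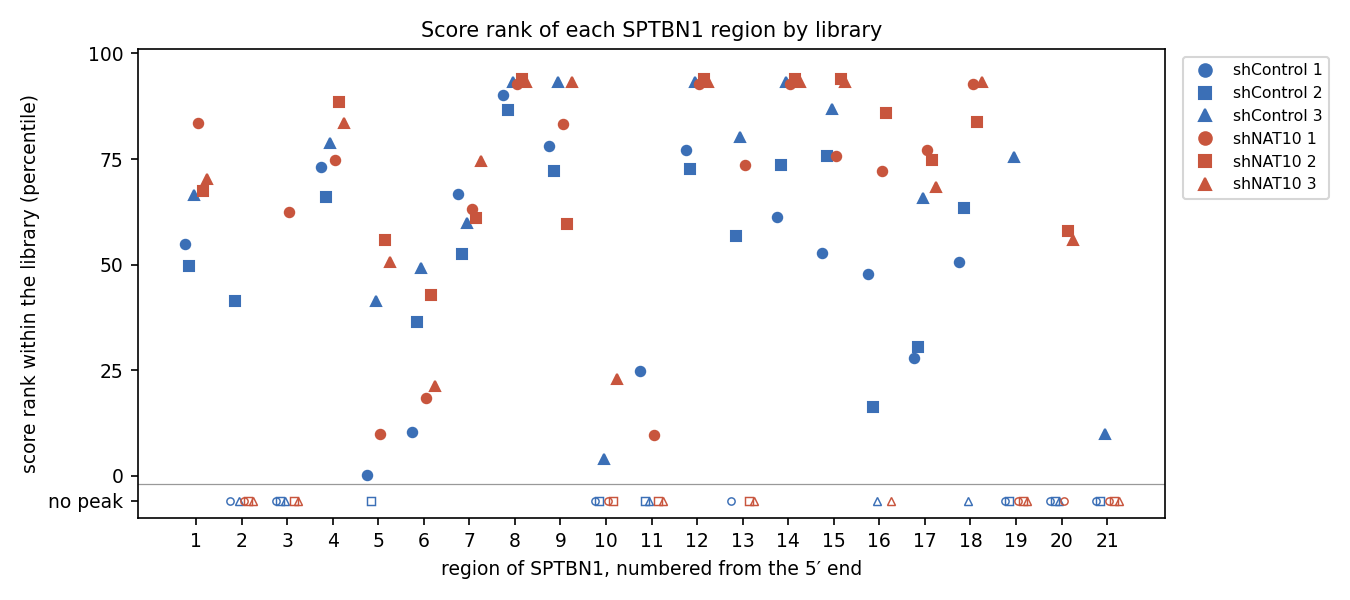
Score rank within the library (y axis, percentile) of each of the 21 SPTBN1 regions (x axis, numbered from the 5′ end), with shControl libraries in blue and shNAT10 libraries in red and open symbols for libraries with no peak. The shControl library 3 (blue triangles) sits with the red symbols in regions 12, 14 and 15, and the groups do not overlap in regions 1 and 17.

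Its partner, alpha-II spectrin (SPTAN1, chr9:128552587-128633662, 81.1 kb), was the gene in which the groups stood furthest apart in number. The peaks numbered 2, 3 and 4 in shControl and 7, 5 and 5 in shNAT10, or 3 ± 1 against 5.67 ± 1.15 (SD, n = 3 each). The difference of 2.67 peaks had an exact permutation p of 0.1, the lowest this design allows, and an adjusted p of 1 over all genes.

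The peaks of SPTAN1 ranked lower in shNAT10, where the highest, region 11 in library 1, had a rank of 55.1. The median score rank of SPTAN1 peaks was 59.4, 47.3 and 31.6 in shControl and 23.2, 16.0 and 29.6 in shNAT10, so every shNAT10 library was below every shControl library. The means were 46.1 ± 13.9 and 22.9 ± 6.76 (exact permutation p = 0.1, adjusted p = 0.797 over the 5966 genes with a peak in all libraries). Among those 5966 genes 5.67% had median ranks that did not overlap and were lower in shNAT10, and 6.12% the reverse. When only the 50% of peaks with the highest scores in each library were kept, the difference in SPTAN1 peak number turned to -1, and with the 17877 highest-scored peaks of each library it was 1 and the groups overlapped. These medians and counts include the peak at the gene's start, called in shControl only (ranks 71.0 to 84.0). They therefore do not describe the added peaks alone.

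SPTAN1 had 12 regions, of which 7 were found in 1 library. Region 1, at the gene's start (chr9:128552558-128552696, 139 bases, the capitals of the first sequence above and the bases after them), had a peak with the same edges in all 3 shControl libraries and none in shNAT10. Its ranks were 74.8, 84.0 and 71.0, the highest of the gene in each of those libraries. Of the 80 regions it was the only one present throughout one group and absent from the other. Over all 41755 regions, 0.34% were in all shControl and no shNAT10 libraries and 0.819% the reverse, and of all promoter windows 38 were touched in all shControl libraries and no shNAT10 library and 42 the reverse.

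Region 2 (chr9:128566738-128566977, 240 bases) was the only SPTAN1 region with a peak in all 6 libraries. Its ranks of 43.9, 47.3 and 51.2 in shControl all lay above those of 23.2, 35.4 and 29.6 in shNAT10. Further along the gene, regions 11 and 12 near 81% of the span went the other way. Region 11 was called in shControl library 3 and in all 3 shNAT10 libraries, and region 12 in shControl library 3 and in shNAT10 libraries 1 and 3.

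**Figure D3:**
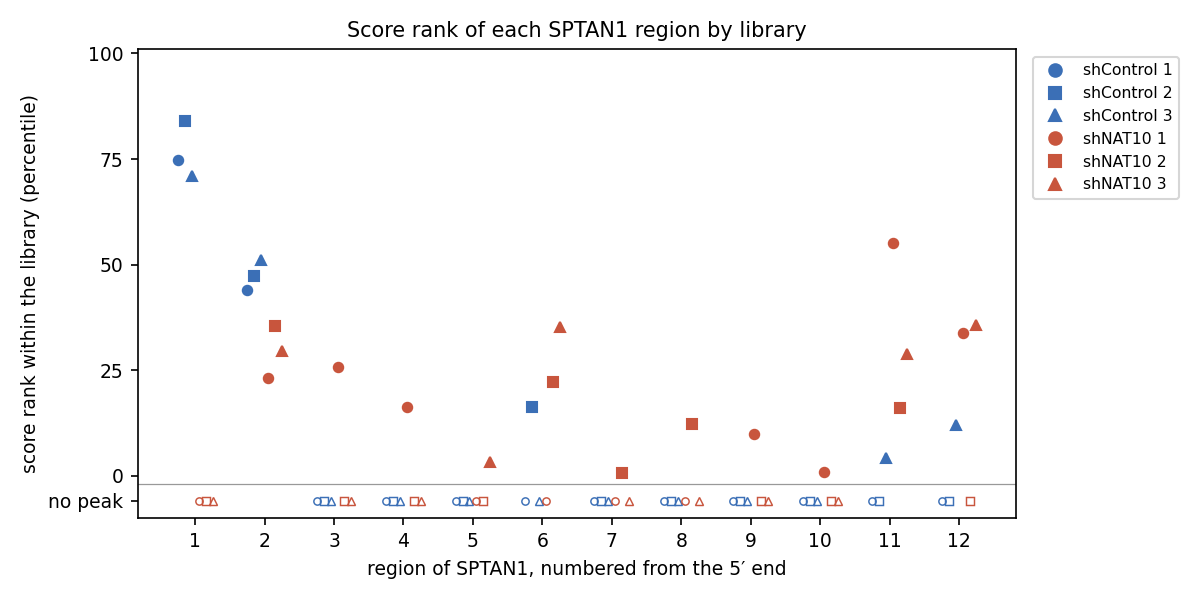
Score rank within the library (y axis, percentile) of each of the 12 SPTAN1 regions (x axis, numbered from the 5′ end), with shControl in blue, shNAT10 in red and open symbols for libraries with no peak. The blue points at ranks 71.0 to 84.0 in region 1 have no red counterpart, region 2 has all blue points above all red ones, and 7 regions have a point from 1 library.

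Desmoplakin (DSP, chr6:7541671-7586714, 45.0 kb), which anchors keratin filaments at desmosomes, had the most even number of peaks. It had 6 in each shControl library and 6, 6 and 5 in shNAT10 (difference -0.333, exact permutation p = 1). With a mean of 13.0 peaks per 100 kb it had the most peaks per length of span, introns included, of the 9 genes. The peak missing from shNAT10 library 3 was the one at the start, region 1, which had ranks of 89.6, 87.0 and 75.2 in shControl and 92.7 and 99.8 in the other two shNAT10 libraries.

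The highest-ranked shared DSP region was region 7 (chr6:7579275-7581569), a single peak of 2295 bases with the same edges in all libraries. It was at 3100 or above in 5 of them, and its rank in the sixth, shControl library 1, was 90.5. All 4 shared DSP regions had a higher mean rank in shNAT10. In region 4 (chr6:7559226-7559400) the groups did not overlap, with 8.85, 23.7 and 48.0 against 54.0, 50.8 and 48.5, although shControl library 3 and shNAT10 library 3 were less than 1 percentile point apart. The median rank over all DSP peaks was 64.4 ± 3.12 in shControl and 68.4 ± 3.54 in shNAT10 (SD, n = 3 each, exact permutation p = 0.3). Among the 50% of peaks with the highest scores, ranked anew, that difference turned from 3.99 to -19.2 (exact permutation p = 0.1). DSP had 3, 5 and 4 such peaks in shControl and 6, 6 and 4 in shNAT10, so these medians rest on different sets of peaks. The share of all genes with median ranks so separated was not computed in that setting.

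Plectin (PLEC), the plakin that links keratin filaments to hemidesmosomes, had 4, 5 and 3 peaks in shControl and 5, 4 and 4 in shNAT10 (exact permutation p = 1). It lies on chromosome 8, positions 143915153 to 143976745. Near the 3′ end of the span, at 94.1%, it carried the longest peak of the 9 genes, 7249 bases with the same edges and a score of 3100 in all 6 libraries. PLEC thus had the most bases under peaks, 8135 ± 436 in shControl and 8166 ± 357 in shNAT10 (SD, n = 3 each), or 13.2% and 13.3% of its span. Region 2 of PLEC was at 3100 or above wherever it was called, in 1 shControl and 3 shNAT10 libraries, and region 5 likewise in 2 and 2. The median rank over its peaks was 89.2 ± 10.7 against 88.6 ± 7.51 (exact permutation p = 0.9), and with one top rank for all peaks at 3100 or above the difference turned from -0.59 to 2.02.

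MACF1 (chr1:39084167-39487138, 403 kb), which crosslinks microtubules and actin, had 3, 4 and 3 peaks in shControl and 5, 3 and 3 in shNAT10 (exact permutation p = 1). Its region 2 (chr1:39105411-39105717, 307 bases) was at 3100 or above in all 6 libraries. Region 4 (chr1:39409503-39414549) showed how a call can change the number of peaks. It was a single peak of 4975 bases in 4 libraries, while in shControl library 2 and shNAT10 library 1 it was split into 2, the longest of 3689 and 1626 bases. The median rank over MACF1 peaks was 71.7 ± 18.0 in shControl and 59.1 ± 13.1 in shNAT10 (exact permutation p = 0.3).

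Dystonin (DST, chr6:56457996-56954830, 497 kb) had 4, 3 and 2 peaks in shControl and 4, 3 and 3 in shNAT10 (exact permutation p = 1). None of its 8 regions was called in all 6 libraries. Those at the start (region 1) and at 22.4% of the span (region 3) were called in 5, and both were missing from shControl library 3. No DST peak reached 3100, and the highest rank was 56.8.

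Filamin A (FLNA, chrX:154348531-154374634, 26.1 kb) had 2, 1 and 2 peaks in shControl and 3, 2 and 2 in shNAT10 (exact permutation p = 0.6). Its region 2 (chrX:154370873-154371361, 489 bases) had the same edges and a score of 3100 or above in all 6 libraries. It is 1 of 3 such regions among the 80 of the 9 genes, beside PLEC region 6 and MACF1 region 2. Over all 41755 regions, 933 were at 3100 or above in all 6 libraries, whatever their edges. The other FLNA regions were each called in 2 libraries. Its median rank was 89.4 ± 4.77 against 78.6 ± 21.3 (exact permutation p = 0.7), and the lowest value was that of shNAT10 library 3.

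AHNAK (chr11:62433544-62546806, 113 kb) had 2, 2 and 3 peaks in shControl and 3, 2 and 4 in shNAT10 (exact permutation p = 0.7). All 16 of its peaks lay in the first 10.3% of the span, introns included, and the rest of the span had none in any library. AHNAK peaks ranked high, with a median rank of 88.0 ± 11.5 in shControl and 85.6 ± 6.41 in shNAT10 (exact permutation p = 0.8). Region 1 at the start and region 3 were at 3100 or above wherever they were called, in 4 and 5 libraries. Region 1 (chr11:62546660-62546835) crossed the start of the span on the minus strand but touched none of the promoter windows given. The AHNAK region called in every library was region 4 (chr11:62535003-62535190), with 96.0, 54.9 and 46.1 against 57.3, 66.6 and 66.5.

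Utrophin (UTRN, chr6:144285335-144853034, 568 kb), the longest of the 9 genes by span, varied most among them in peak number. It had 3, 5 and 3 peaks in shControl and 7, 0 and 1 in shNAT10, so that the 2 extremes both lay in shNAT10 (difference -1, exact permutation p = 0.8). Without shNAT10 library 2 the difference turned to 0.333. Without shNAT10 library 1, the longest list, the groups no longer overlapped and shControl was higher. The share of all genes with that pattern was not computed with that library left out. Of its 12 regions, 8 were found in 1 library and none in all 6. No UTRN peak had a rank over 31.4, and with no peak in shNAT10 library 2 its median rank was not tested.

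How far the peaks spread along the span differed between the genes. In bins of 10% of the span, the peaks of a library fell on average in 5.17 bins for SPTBN1, 3.83 for PLEC and DSP, 3.17 for DST and SPTAN1, 2.83 for MACF1, 2.17 for UTRN and 2 for AHNAK and FLNA. For SPTAN1 the bins numbered 2, 3 and 3 in shControl and 4, 4 and 3 in shNAT10, which overlapped. The farthest pair of SPTAN1 peaks in a library lay 17.6%, 48.0% and 81.8% of the span apart in shControl and 64.2%, 63.1% and 64.2% in shNAT10, so shControl held both the narrowest and the widest spread.

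**Figure D4:**
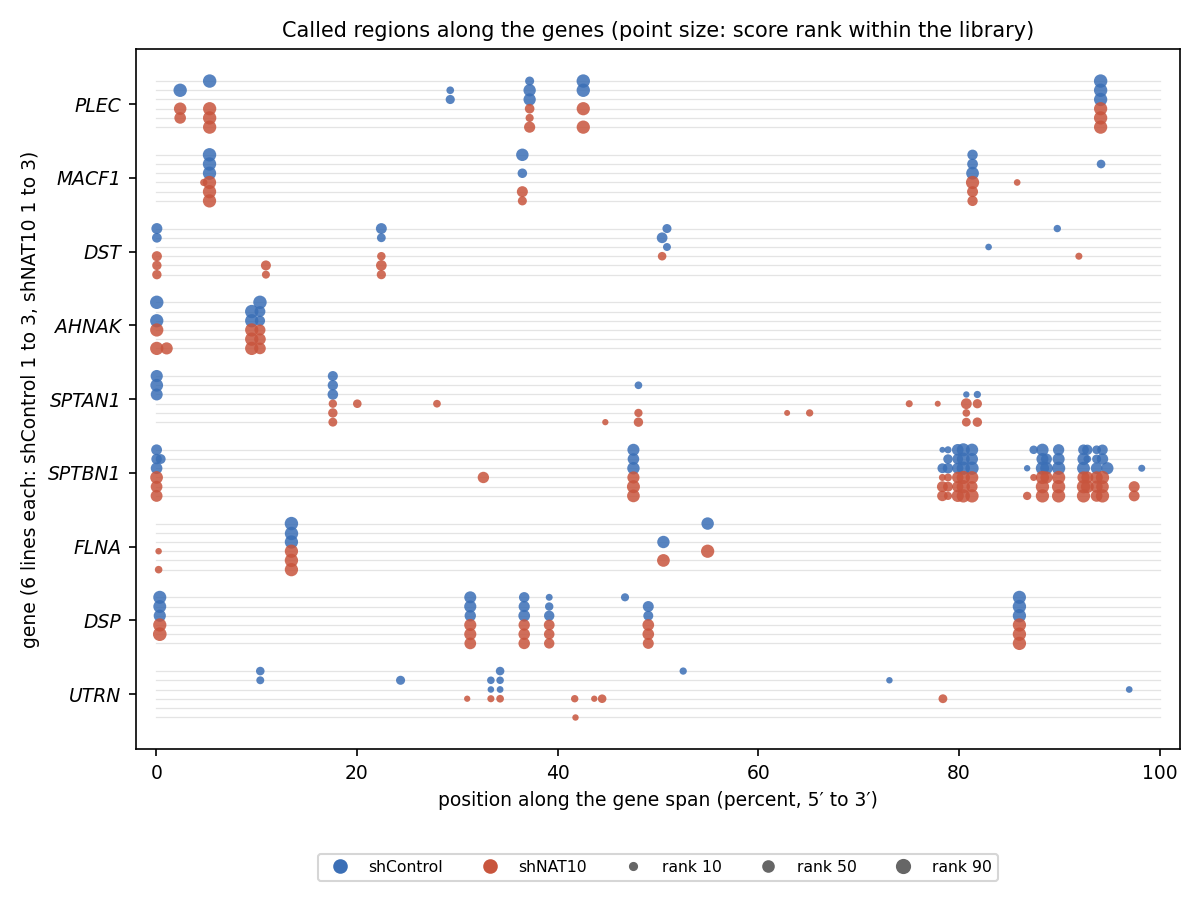
Position of each called region along the gene span (x axis, percent from the 5′ to the 3′ end) for the 9 genes, with 6 lines per gene for shControl 1 to 3 (blue) and shNAT10 1 to 3 (red) and point size for the score rank. SPTBN1 points crowd into the last 25% and AHNAK points end at 10.3%. UTRN and DST points are small, and neither gene has a region with points in all 6 libraries.

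Most of the peaks recurred at the same bases. Of the 80 regions, 21 (26.3%) were called in all 6 libraries and 27 (33.8%) in 1, against 22.0% and 38.7% of all regions. The edges were the same to the base in 20 of the 21 shared regions, and in 68.9% of the shared regions of the whole set. Regions in 1 library had low scores, with a median rank of 12.2, against 55.1 for regions in 2 to 5 libraries and 74.1 for those in all 6. Of the 27 regions in 1 library, 12 came from shNAT10 library 1, the longest list, and 2 to 4 from each of the others. The share was similar over all regions, where 7156 of the 16141 found in 1 library came from shNAT10 library 1.

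With every peak at 3100 or above given the same top rank, 13 of the 21 shared regions had a higher mean rank in shNAT10, 5 a lower one and 3 were tied. Over all 9195 shared regions the shares were 55.3%, 34.6% and 10.1%. The ranks did not overlap between groups in 3 regions that were higher in shNAT10 (SPTBN1 regions 1 and 17 and DSP region 4) and in 1 that was lower (SPTAN1 region 2). Over all shared regions these shares were 6.98% and 4.05%. The count of 4 changed with the libraries used: it was 13 without shControl library 3, 8 without shControl library 1 and 7 without shNAT10 library 2. Ranks come apart more easily with fewer libraries in a group. The share over all shared regions was not computed with a library left out.

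The bases under peaks differed far more between genes than between groups. In all 9 genes together, peaks covered 24951, 24099 and 23940 bases in shControl and 25030, 23613 and 23868 in shNAT10, and the groups overlapped. PLEC, MACF1, SPTBN1 and DSP had means of 3114 to 8166 bases in either group, and the other genes 309 to 1036. In 1 of the 9 genes, SPTAN1, the groups did not overlap, with 379, 528 and 634 bases against 1082, 741 and 779. Over all genes 3.73% had bases under peaks that did not overlap and were higher in shNAT10. The 9 genes held 7, 7 and 10 peaks at 3100 or above in shControl and 15, 11 and 14 in shNAT10, that is 17.5%, 16.3% and 24.4% of their peaks against 26.8%, 28.2% and 34.1%, which did not overlap. SPTBN1 held 0, 0 and 4 of these peaks against 4, 4 and 6. Without it the counts were 7, 7 and 6 against 11, 7 and 8, which overlapped. The shares without it were 26.9%, 24.1% and 23.1% against 27.5%, 28.0% and 29.6%, which still did not overlap. In the whole lists that share was 7.85%, 9.95% and 12.9% against 14.1%, 11.5% and 13.1%, where the groups overlapped.

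**Figure D5:**
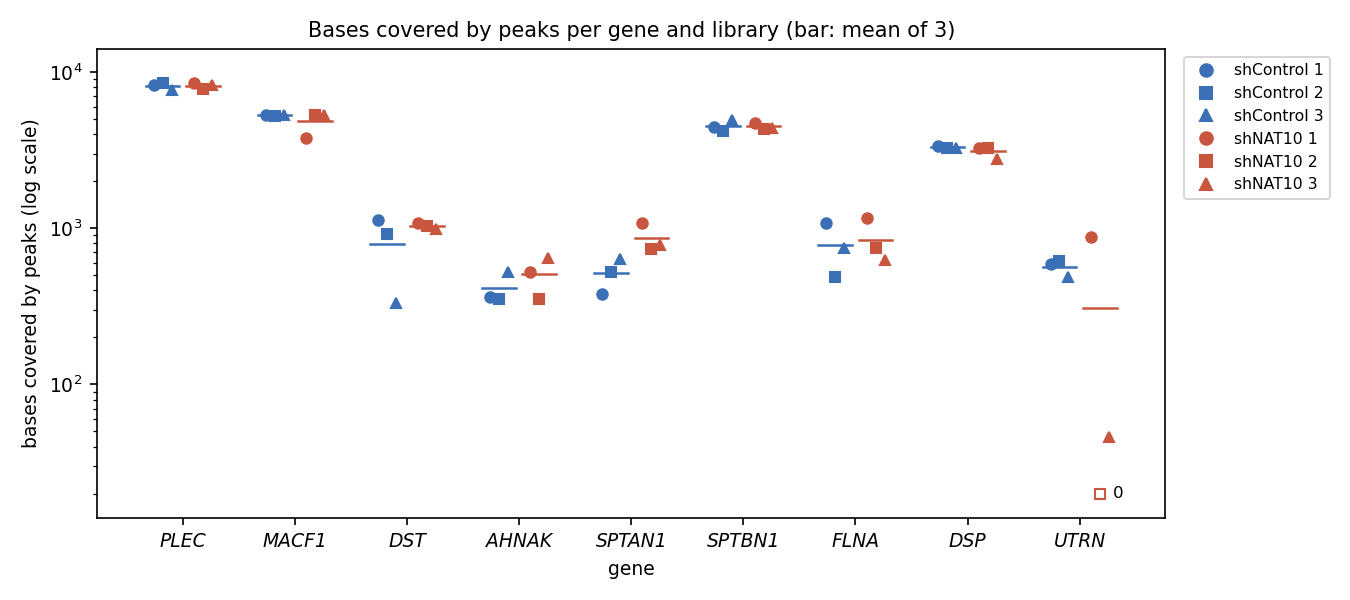
Bases covered by peaks (y axis, log scale) in each of the 9 genes (x axis) in the shControl (blue) and shNAT10 (red) libraries, 1 point per library, with a bar at the mean of each group and an open symbol for a value of 0. PLEC lies at 7649 to 8491 bases, SPTAN1 is at 379 to 634 in shControl and 741 to 1082 in shNAT10, and UTRN spans 0 to 881 within shNAT10.

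Of 47 other genes of the same structures, 42 had a peak and 31 had one in all 6 libraries. Over all protein-coding genes, 12281 of 20052 had a peak, and 48.6% of those had one in all 6 libraries. In none of the 47 did the peak numbers of the groups fail to overlap. Such a separation was rare over all genes too, at 1.57% with more in shNAT10 and 0.651% with more in shControl. Among the other plakins periplakin (PPL) had 10, 12 and 12 peaks in shControl and 11, 10 and 11 in shNAT10, and epiplakin (EPPK1) 6, 10 and 5 against 7, 3 and 3. Among the other spectrins SPTBN5 had 14, 18 and 15 against 24, 16 and 17. SPTBN5 thus exceeded SPTBN1 in total, with 104 peaks against 87.

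Among filamins and actin crosslinkers, FLNC had 44 peaks in all libraries and ACTN1, an alpha-actinin, 38. In the dystrophin complex DTNB, a dystrobrevin, had 28, and dystroglycan (DAG1) and the syntrophin SNTB2 had 12 each. In the desmosome list plakoglobin (JUP) had 40 and PKP4 20, and in the hemidesmosome list the integrins ITGB4 and ITGA6 had 45 and 12. ITGB4, the integrin that plectin binds, had 9, 11 and 7 peaks in shControl and 11, 3 and 4 in shNAT10, which overlapped through shNAT10 library 1. For ankyrins and AHNAK2 the leading genes were AHNAK2 (17) and ANK1 (13), for microtubule ends CLASP2 (15) and CLIP1 (13), and for keratins KRT8 (10) and KRT19 (2). No peak was called in DTNA, PKP1, KRT18 or KRT20.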

How the data were processed

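acRIP-seq was done on SW620 cells, 3 shControl and 3 shNAT10 immunoprecipitated libraries. The authors deposited 1 list of mRNA peaks per library with a score for each peak. The build, GRCh38, is from the submitters' processing notes, and the aligner, the peak caller's settings and what the score measures are not given in the sources used here. The score was used only as a mid-rank percentile within a library. Gene spans came from the GRCh38.p14 table of RefSeq (20052 protein-coding genes) and strands from its promoter table (15842 genes) or, for 2383 genes including PLEC, from the strand with more peaks. None of the peaks of the 9 genes was on the other strand or in a further protein-coding gene. Peaks overlapping by 1 base in any library were merged into regions. Groups were compared by two-sided exact permutation tests of the group means (Python 3.11.15, scipy 1.17.1, pandas 2.3.3), with Benjamini-Hochberg adjustment over all genes, and calls were made where the values of the groups did not overlap. The steps were tested on simulated data. The genes, the lists of related genes and markers and the rules were chosen with earlier results of these data known. All 9 genes are named, each with its called regions and the region in all libraries whose lowest rank was highest, with, for each list, the 2 genes with the most peaks, and the 5 other genes with the highest mean number of peaks, except that a few genes so chosen are not reported here. Positions in exons or coding sequence, input libraries and a comparison with genes of long proteins were not analysed here. The replicate numbers were not used to pair the libraries in the permutation tests. Deviations of same-numbered libraries correlated at 0.0295, 0.00234 and 0.0318, which cannot show whether those libraries were prepared together.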

Additional observations from a re-analysis of the deposited data

How the results depend on the processing

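With 3 libraries a group no test could pass 0.05, the lists give no depth, and a peak's presence rests on a score minimum of 50, so differences among weak peaks are the least certain. Differences are shNAT10 minus shControl. With the 50% of peaks of the highest score, the difference in peak number turned to -0.67 for DST, -1 for SPTAN1 and 1.33 for DSP and to 0 for FLNA and UTRN. In that setting the difference in median rank turned to 2.73 for PLEC, 4.47 for FLNA and -19.2 for DSP, and shared regions with ranks apart fell to 0. The number of 10% bins of the span with a peak, averaged over libraries, fell there to 3 for PLEC, 2 for MACF1, 0.67 for DST, 1.83 for AHNAK, 0.83 for SPTAN1 and 0 for UTRN. With the same number of peaks per library, the number turned to -0.33 for MACF1 and -0.33 for DST, genes apart became 0, regions of 1 group 2, shared regions apart 2, and bins 2.5 for SPTAN1 and 0.67 for UTRN. With numbers scaled to list length SPTBN1 turned to -0.42. The PLEC rank difference turned to 12.6 without peaks at 3100 or above and to 2.02 with one top rank for them, an alternative chosen after seeing the data. The cause was not tested.

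Leaving out 1 library, the difference in peak number ran from -0.17 to 0.83 for PLEC, -0.33 to 0.67 for MACF1, -0.17 to 0.83 for DST, 0.17 to 1.17 for AHNAK, 2 to 3.17 for SPTAN1, -0.33 to 0.67 for SPTBN1, 0.33 to 0.83 for FLNA, -0.5 to 0 for DSP, -3.17 to 0.33 for UTRN and -1.33 to 7.17 for all 9. It turned without shControl 3 for PLEC and DST, without shNAT10 1 for MACF1 and SPTBN1 and without shNAT10 2 for UTRN. The difference in median rank ran from -6.75 to 3.74 for PLEC, -22.9 to -6.33 for MACF1, -7.88 to 7.68 for DST, -8.98 to 1.57 for AHNAK, -30.4 to -16.5 for SPTAN1, 10.1 to 21.0 for SPTBN1, -17.9 to 1.45 for FLNA and 2.31 to 6.03 for DSP. It turned without shControl 1, shControl 2 or shNAT10 2 for PLEC, without shControl 3 or shNAT10 2 for DST, without shControl 1, shControl 3 or shNAT10 2 for AHNAK and without shNAT10 3 for FLNA. The 1 gene apart was SPTBN1 in place of SPTAN1 with the 50% of peaks of the highest score. Genes apart ran from 1 to 2 (2 without shNAT10 1), shared regions apart from 4 to 13, and regions of 1 group from 1 to 4, with 4 without shNAT10 1, 3 without shControl 1, shControl 3 or shNAT10 2, and 2 without shControl 2. Groups come apart more easily with a library left out, and the shares over all genes and regions were not computed there. With a replicate block the differences are the same by construction and sign flips over 3 pairs cannot go below 0.25, which SPTAN1 reached for the number (difference 2.67) and the rank (-23.2) and SPTBN1 for the rank (14.8). Joining near peaks, either strand, overlap in place of midpoint and 1 gene only turned no difference and moved no count by over 1.5 times, nor did asking for 50% of a region or the highest rank in place of the median.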
